A study of Mus musculus with 2 samples.

Results

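Mast cells carry surface receptors that read the small molecules of an inflamed tissue. The 10 genes described here encode receptors of the G protein-coupled class for complement anaphylatoxins (C5ar1, C5ar2, C3ar1), platelet-activating factor (Ptafr), prostaglandin E2 (Ptger3, Ptger4), adenosine (Adora3, Adora2b), histamine (Hrh4) and UDP-glucose (P2ry14). The genes were chosen by name, and they were selected on the signals and differences of these same 2 arrays, which were already known, so their values are a description with no test. All 10 genes were found, with 14 probes in all, among 34732 gene names on the array. C5ar2 is written there under its older name Gpr77.

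The cells were bone marrow-derived mast cells of C57BL/6 mice on 2 one-colour (Cy3) Agilent arrays. On the GATA1 siRNA array the cells had received an siRNA against the transcription factor GATA1, and on the control siRNA array a control siRNA, each at 200 pmol. For both, marrow mononuclear cells had been grown for 2 weeks in interleukin 3 (10 ng/mL) and for 2 further weeks in interleukin 3 with stem cell factor (10 ng/mL), and material of 2 animals was pooled. Each group is therefore 1 array with no replicate and no p-value can be given. The number of arrays limits how precise any value is, and the spread between arrays of a group was not measured. The ages of the animals, the part of the Gata1 transcript that the siRNA targets and the time between transfection and harvest are not given in the sources used here.

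Anaphylatoxins are small fragments released when the complement proteins C3 and C5 are cut. They draw leukocytes to a site and, in some mast cell types, cause degranulation. Prostaglandin E2, adenosine and histamine act on several receptors each: in general, receptors coupled to Gi proteins (Ptger3, Adora3, Hrh4) lower cyclic AMP, and receptors coupled to Gs proteins (Ptger4, Adora2b) raise it. Mast cells thus read one mediator through receptors with different outputs.

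Each probe is a 60-base oligonucleotide. Stretches of 30 bases from the 5′ end are shown for both C5ar2 probes, which gave the largest difference among the 10 genes, and for the probes of the 2 receptors past 1.5-fold higher and of C5ar1, the chromosomal neighbour of C5ar2. Capitals mark bases that both C5ar2 probes hold. The second C5ar2 probe starts 16 bases upstream of the first and shares 44 of its 60 bases, so the 2 probes read almost the same stretch of the transcript and are not independent measurements.
C5ar2, probe A_55_P1970788: CACATACGGTTAAGGCATTGCCTATTACCT
C5ar2, probe A_55_P2106106: cttgggcctaacaacaCACATACGGTTAAG
C5ar1, probe A_55_P2017681: gtacagatcaacaccagaagtatcatgcaa
Ptafr, probe A_55_P2041868: acccaagtacctggcctcaaatgtaaccag
Ptger4, probe A_51_P207988: aagcacattggctgtcattctgatgtgact

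GATA1 binds DNA at short sites around the letters GATA, so the promoter windows of the receptors (250 bases before to 50 after the annotated start, RefSeq, build GRCm38.p6) were searched on both strands for the letters AGATAA or AGATAG, and for the letters TGATAA or TGATAG. Windows of 9 of the 10 genes were searched, and Hrh4 was left out. A match was found for 4 of these 9 genes, against 33.0% of all 27025 genes with a window. By window, 7 of 13 (53.8%) held one, against 29.8% of all 32851 windows, and 5 of the 7 belong to P2ry14 and C5ar2, which have several windows each. C5ar2 has 2 annotated starts with 1 match each, C3ar1 has 3 matches in its single window, Adora3 has 2, and 3 of the 4 windows of P2ry14 have 1 each. The windows of C5ar1, Ptafr, Ptger3, Ptger4 and Adora2b held none. The 250 upstream bases of C5ar2 and C3ar1 are printed because C5ar2 had the largest difference and C3ar1 the most matches in 1 window. They are given 5′ to 3′ on the strand of the gene with matches in capitals, and a match on the opposite strand appears as its reverse complement.
C5ar2, first start, chr7:16244155-16244404, minus strand: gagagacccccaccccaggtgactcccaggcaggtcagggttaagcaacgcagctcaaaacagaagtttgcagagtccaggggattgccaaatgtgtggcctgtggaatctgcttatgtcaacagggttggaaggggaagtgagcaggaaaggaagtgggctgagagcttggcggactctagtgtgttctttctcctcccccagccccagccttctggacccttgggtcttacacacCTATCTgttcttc
C5ar2, second start, chr7:16242332-16242581, minus strand: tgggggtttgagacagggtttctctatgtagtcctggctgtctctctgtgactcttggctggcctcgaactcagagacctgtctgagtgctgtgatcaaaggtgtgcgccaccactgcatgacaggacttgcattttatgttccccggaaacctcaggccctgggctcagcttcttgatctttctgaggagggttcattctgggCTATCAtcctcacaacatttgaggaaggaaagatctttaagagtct
C3ar1, chr6:122856158-122856407, minus strand: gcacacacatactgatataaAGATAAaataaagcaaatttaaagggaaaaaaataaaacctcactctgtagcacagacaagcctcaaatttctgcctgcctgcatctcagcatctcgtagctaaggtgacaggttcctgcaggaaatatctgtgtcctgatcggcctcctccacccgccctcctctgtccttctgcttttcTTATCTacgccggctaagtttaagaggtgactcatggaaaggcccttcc
The match of the first C5ar2 start (AGATAG, opposite strand) spans bases -13 to -8 from the start, and that of the second (TGATAG, opposite strand) bases -46 to -41. Those of C3ar1 lie at -230 to -225, at -49 to -44 and, beyond the printed part, at 10 to 15. A match is only a run of letters. Of the 4 genes with a match, C5ar2 and Adora3 were lower on the GATA1 siRNA array and P2ry14 and C3ar1 were higher, C3ar1 by less than its error.

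Values are processed signals of the scanner software in scanner units, scaled levels (signal divided by the array's 75th percentile) or log2 differences of scaled levels, GATA1 siRNA minus control siRNA. The 75th percentile was 340.0 on the GATA1 siRNA array and 303.2 on the control siRNA array. Of 55659 probes, 55.2% were well above background on the GATA1 siRNA array and 52.7% on the control siRNA array, and 20402 genes were measured on both. The median difference over all genes was 0.01 (SD 0.29). Gata1 itself had a signal of 3929.6 on the GATA1 siRNA array, against 16415 on the control siRNA array, a log2 difference of -2.23 (4.68-fold lower). All 12 mast cell markers on a fixed list, among them Kit, Fcer1a and Cpa3, were measured on both arrays, with a median difference of -0.07.

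All 14 receptor probes were well above background on both arrays, none was saturated, and none was marked as an outlier. None of the 14 spots had a spot differing 4-fold or more among its 12 closest spots. The scanner software's own error for a log2 difference was between 0.20 and 0.22 for these probes, and it covers the spot only. Repeated spots of 1 probe within these arrays gave a median SD of the difference of 0.06, from 0.17 at the signal level of the C5ar1 probe to 0.03 at that of Adora3.

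C5ar2 was the only one of the 10 genes at least 2-fold different, 3.06-fold lower on the GATA1 siRNA array, and over all measured genes 0.608% were at least 2-fold lower. None of the 10 was at least 2-fold higher, against 0.294% of all genes. At 1.5-fold, Ptafr and Ptger4 were higher, against 1.83% of all genes, and C5ar2 alone was lower, against 2.76%. Among the 13639 genes within the level range of the receptors, the shares were 0.396% (2-fold lower), 0.183% (2-fold higher), 1.39% (1.5-fold lower) and 1.25% (1.5-fold higher). The median over the 10 genes was 0.17, with 7 above 0 and 3 below, beside a median of 0.01 and 52.7% above 0 over all genes. Because the genes were chosen with these arrays known, nothing is read from these counts. In cultured cells measured in bulk, fewer cells carrying a receptor and less of its RNA per cell cannot be told apart.

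**Figure D1:**
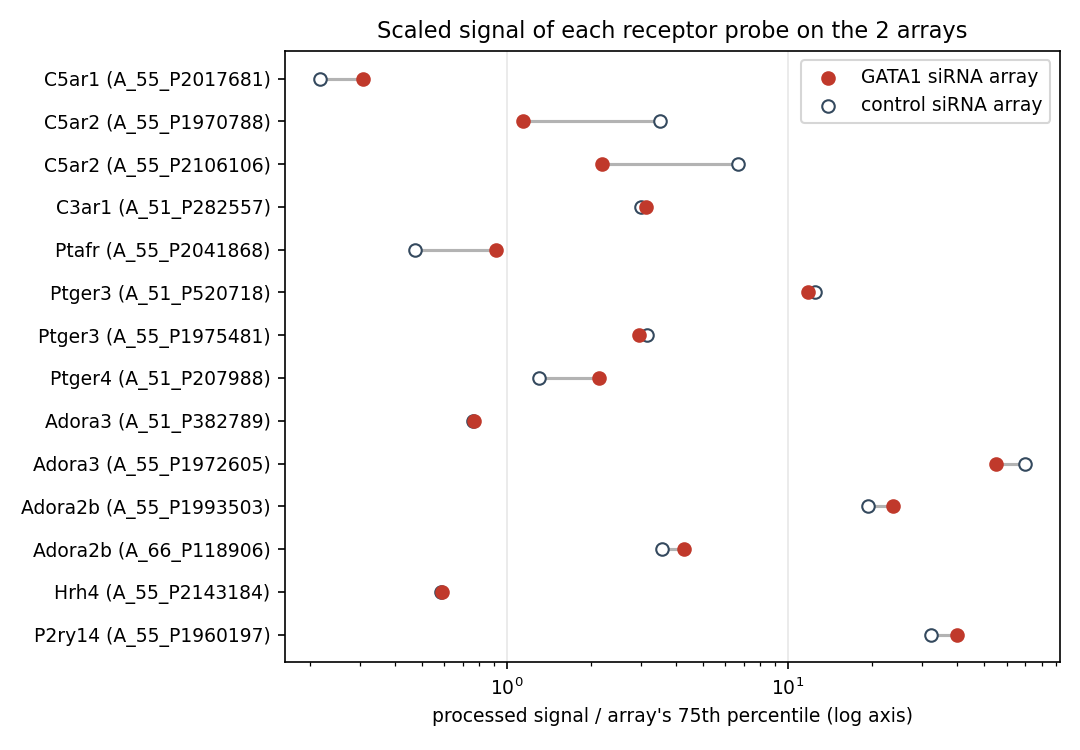
Scaled signal (processed signal divided by the array's 75th percentile, log axis) of each of the 14 receptor probes, with filled points for the GATA1 siRNA array and open points for the control siRNA array, 1 array each. Both C5ar2 probes lie about 3-fold lower on the GATA1 siRNA array (3.07-fold and 3.05-fold), whereas Ptafr (1.94-fold) and Ptger4 (1.64-fold) lie higher.

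C5ar2, also called C5L2, binds C5a like C5ar1 but does not couple to G proteins in the usual way, and it has been described both as a decoy and as a modulator of signals from C5ar1. Its probe A_55_P1970788 (chromosome 7, 16820085 to 16820144, minus strand, build mm9, from the array's own annotation) had a signal of 389.9 on the GATA1 siRNA array, against 1067 on the control siRNA array. Its probe A_55_P2106106 (16820101 to 16820160, minus strand) had 742 on the GATA1 siRNA array, against 2019 on the control siRNA array. The log2 differences were -1.62 and -1.61. The gene ranked 30th lowest of the 20402 measured genes, and its difference was 0.72 times that of Gata1 on the log2 scale. Across 11 other processing choices the gene's difference stayed between -1.64 and -1.48.

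**Figure D2:**
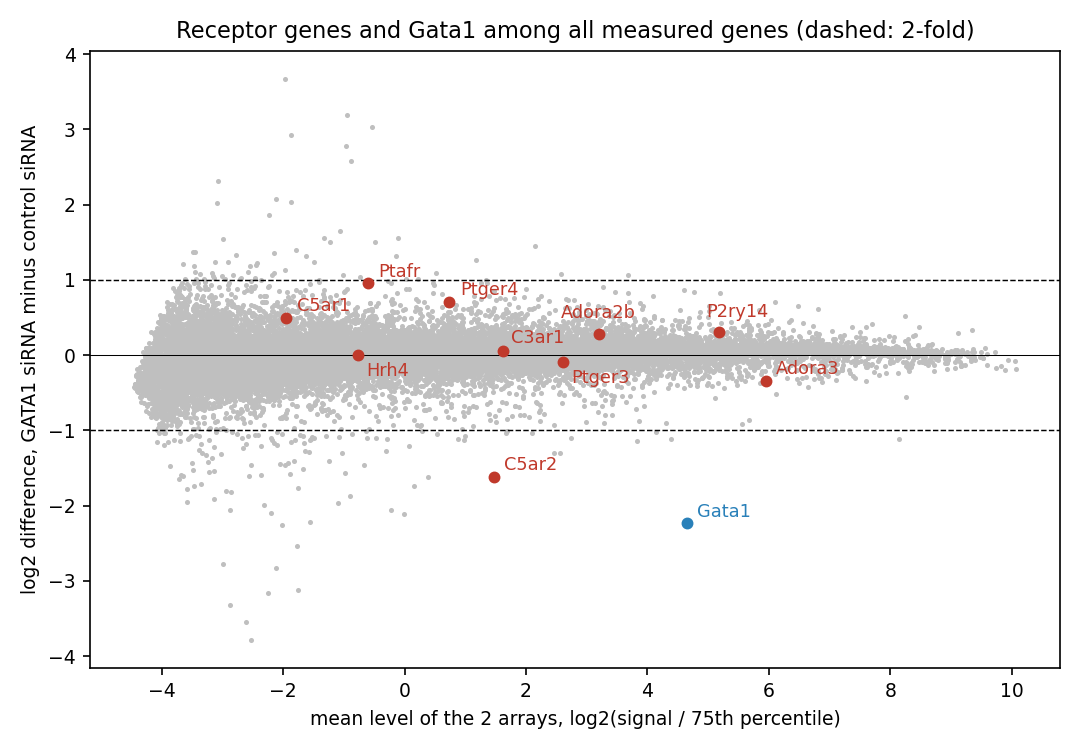
Log2 difference (GATA1 siRNA minus control siRNA) against the mean level of the 2 arrays for all 20402 measured genes (grey), the 10 receptors (red) and Gata1 (blue), with dashed lines at 2-fold. C5ar2 (-1.61) lies below the 2-fold line, and Ptafr (0.96) lies just under the upper line.

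C5ar1, the receptor through which C5a draws neutrophils and other leukocytes, had the lowest signals. Its single probe (chromosome 7, 16832243 to 16832302, minus strand, mm9) had a signal of 105 on the GATA1 siRNA array, against 66.0 on the control siRNA array, a difference of 0.50. This lies within 1.5-fold, and it was 0.24 with another background correction, normexp with an added offset. The probes of the 2 C5a receptors lie 12158 bp apart, and their differences had opposite signs: the C5ar1 difference minus the C5ar2 difference was 2.11 (software error 0.30), between 1.72 and 2.19 across the other processing choices. C3ar1, the receptor for the fragment of C3, had a signal of 1067 on the GATA1 siRNA array, against 915 on the control siRNA array (chromosome 6, 122798222 to 122798281, minus strand, mm9). After scaling the difference was 0.06, which is less than the software error.

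Within 100 kb of the C5ar2 probe, 10 further probes of 8 genes were measured, with differences from -0.08 to 0.50 and a median of 0.05. On one side lie Slc8a2 (-0.07), a sodium-calcium exchanger, the homeobox gene Meis3 (0.40, -0.06 and 0.03 at its 3 probes) and the helicase Dhx34 (-0.08). On the other side lie C5ar1, Inafm1 (0.01), Ccdc9 (0.06), the cell death gene Bbc3 (0.16) and Sae1 (0.25), a subunit of the SUMO-activating enzyme. The dimmer Meis3 probe, with a signal of 97.9 on the GATA1 siRNA array and 66.0 on the control siRNA array, differed from the other 2 probes of the gene.

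**Figure D3:**
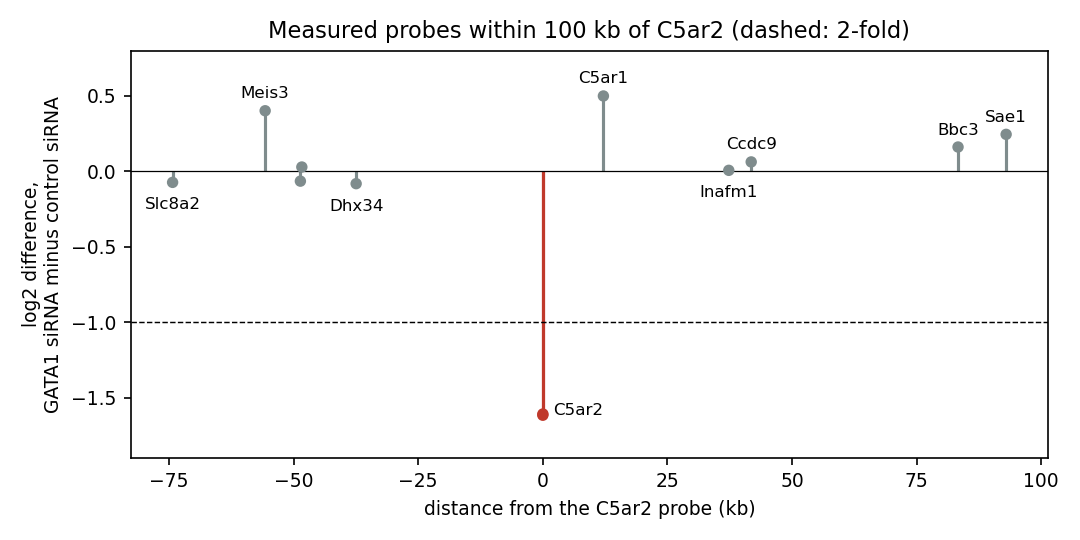
Log2 difference (GATA1 siRNA minus control siRNA) of each measured probe within 100 kb of the C5ar2 probe, against its distance along the chromosome in kb, with a dashed line at 2-fold lower. Both C5ar2 probes stand at -1.62 and -1.61, and the other 10 probes lie between -0.08 and 0.50.

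Ptafr, the receptor for platelet-activating factor, had the highest difference of the 10 genes. Its single probe (chromosome 4, 132136722 to 132136781, plus strand, mm9) had a signal of 313 on the GATA1 siRNA array, against 144 on the control siRNA array. The difference of 0.96 (1.94-fold) was just short of 2-fold and ranked 72nd highest of all genes. It was 1.02 with the authors' scaling, 0.74 with another background correction, and between 0.96 and 0.97 under the other 9 alternatives. The 6 measured probes around it within 100 kb, of Sesn2, Atpif1, Dnajc8 and 5830409B07Rik, lay between -0.13 and 0.11.

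Ptger4 encodes the Gs-coupled EP4 receptor for prostaglandin E2, and Ptger3 the EP3 receptor, which couples to Gi proteins and through which prostaglandin E2 can strengthen the release of mast cell mediators in mice. Ptger4 had a signal of 726 on the GATA1 siRNA array, against 396 on the control siRNA array (chromosome 15, 5184419 to 5184478, minus strand, mm9), a difference of 0.71 (1.64-fold). Ptger3 was read by 2 probes that do not overlap. Probe A_51_P520718 (chromosome 3, 157307508 to 157307567, plus strand) had 4003 on the GATA1 siRNA array, against 3800.2 on the control siRNA array. Probe A_55_P1975481 (157268044 to 157268103, plus strand) had 1004 on the GATA1 siRNA array, against 956 on the control siRNA array. Both gave -0.09, within the software error. The Ptger4 difference minus the Ptger3 difference was 0.80 (software error 0.29), between 0.72 and 0.83 under the alternatives.

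Adora3 encodes the Gi-coupled adenosine receptor through which adenosine promotes degranulation of mouse mast cells, and Adora2b a low-affinity, Gs-coupled adenosine receptor. Adora3 (probe A_55_P1972605, chromosome 3, 105711212 to 105711271, plus strand, mm9) had a signal of 18703 on the GATA1 siRNA array, against 21081 on the control siRNA array. Its difference was -0.34, between -0.40 and -0.28 under the alternatives that keep this naming. A second probe that the array names Adora3 (A_51_P382789, 105721698 to 105722939, plus strand) reads a transcript that RefSeq now assigns to Tmigd3, an overlapping gene. It had a signal of 259.9 on the GATA1 siRNA array, against 231 on the control siRNA array, a difference of 0.00. Taking both probes as Adora3 gives -0.17.

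Adora2b was higher at both of its probes. Probe A_55_P1993503 (chromosome 11, 62079834 to 62079893, plus strand) had 8073 on the GATA1 siRNA array, against 5854 on the control siRNA array, a difference of 0.30. Probe A_66_P118906 (62078754 to 62078813, plus strand) had 1455 on the GATA1 siRNA array, against 1086 on the control siRNA array, a difference of 0.26. These 2 probes do not overlap. The gene's difference of 0.28 and that of Adora3 had opposite signs, and the Adora2b difference minus the Adora3 difference was 0.62 (software error 0.29), between 0.60 and 0.64 under the alternatives. As ratios, the GATA1 siRNA to control siRNA fold was 4.33 times as high for C5ar1 as for C5ar2, 1.75 times for Ptger4 against Ptger3 and 1.53 times for Adora2b against Adora3. These ratios do not depend on a constant scaling of the arrays, and they describe genes selected on the same values.

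Hrh4, the Gi-coupled histamine receptor through which histamine attracts mast cells and eosinophils, had a signal of 200.2 on the GATA1 siRNA array, against 178 on the control siRNA array. The scaled difference was 0.00. P2ry14, a Gi-coupled receptor for UDP-glucose and related sugar nucleotides, had 13644.5 on the GATA1 siRNA array, against 9835 on the control siRNA array (chromosome 3, 58918548 to 58918607, minus strand, mm9), a difference of 0.31. Gpr171, a related receptor gene at -17406 bp from it, stood at 0.55, with signals of 5393 on the GATA1 siRNA array and 3276 on the control siRNA array. Med12l, on the other strand of the same stretch, stood at -0.24 at its measured probe.

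The genes nearest to C5ar2 in difference, among 3305 named genes within 1 log2 unit of its level, were the aryl hydrocarbon receptor Ahr (-1.12), Cd55b (-1.11) and the olfactory receptor gene Olfr920 (-1.08). Ahr, the closest, differed from C5ar2 by 0.49 on the log2 scale. The likeness is over 2 arrays only.

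Genes of the same mediators were read from fixed lists. Over all measured genes, 0.608% were at least 2-fold lower and 0.294% at least 2-fold higher. Of 28 complement genes 18 were measured on both arrays, and 1 was at least 2-fold lower, none 2-fold higher, with a median of 0.02. The lowest was Cd55, the decay-accelerating factor that breaks up C3 convertases on host cells, at -1.14, with signals of 3248 on the GATA1 siRNA array and 6385 on the control siRNA array. Cd55b is a near copy of Cd55 in the mouse, and signals of the 2 genes may not be separable on this array. C2, a convertase component (-0.70), and Serping1, the C1 inhibitor (-0.69), came next, and both were dim with signals of 18 and 19 on the GATA1 siRNA array and 27 each on the control siRNA array. Cfp, which encodes properdin, a stabilizer of the convertase, stood at 0.66 with bright signals of 38025 on the GATA1 siRNA array and 21520 on the control siRNA array, and it was the highest of the list. For Hc, the gene of C5 itself, neither array gave a signal well above background.

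Among enzymes for platelet-activating factor and prostaglandin E2, 14 of 16 genes were measured, none past 2-fold, with a median of 0.07. Pla2g7, the acetylhydrolase that breaks down platelet-activating factor, was the lowest at -0.82 at both of its probes, with signals of 422 on the GATA1 siRNA array and 663 on the control siRNA array. Ptgs2, the inducible cyclooxygenase, stood at 0.42 but was dim (41 on the GATA1 siRNA array, 27 on the control siRNA array). Pafah2, an intracellular acetylhydrolase, stood at -0.31. Of the 7 other prostanoid receptors only Ptgir, the prostacyclin receptor, was measured on both arrays, at 0.03, and for 5 neither array gave a signal well above background.

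The leukotriene and other chemoattractant receptors had the highest median of the 9 lists, 0.30 over 15 of 18 genes. At least 2-fold higher was 1 gene, against 0.294% of all genes, and none was 2-fold lower. At least 1.5-fold higher were 4, against 1.83%, and none was 1.5-fold lower, against 2.76%. At 1.5-fold, the complement list had 1 higher and 3 lower, the G protein list 1 and 2, and the other mast cell receptors 2 and 1. The adenosine and nucleotide lists each had 1 higher, and the histamine and platelet-activating factor lists each 1 lower. Most of the chemoattractant receptors were dim. The formyl peptide receptor Fpr2 stood at 1.38, Hcar2, a receptor for hydroxy-carboxylic acids, at 0.96 and Lpar2, a receptor for lysophosphatidic acid, at 0.80, with signals of 49, 64 and 42 on the GATA1 siRNA array and 17, 29 and 22 on the control siRNA array. Ltb4r1, the high-affinity receptor for leukotriene B4 and much brighter (4775 on the GATA1 siRNA array, 3331 on the control siRNA array), stood at 0.35. Other bright genes of the list were Lpar6 (36730 on the GATA1 siRNA array, 28910 on the control siRNA array) at 0.18 and Cnr2 (5161 and 5349) at -0.22. The median of this list was -0.08 when probes under background were counted.

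Of 12 adenosine genes 9 were measured, none past 2-fold, with a median of 0.04. Nt5e, the surface enzyme that makes adenosine from AMP, stood at 0.71 but was dim (123 on the GATA1 siRNA array, 67 on the control siRNA array), Adk, which removes adenosine inside cells, at -0.30 at both probes, and Adora2a, another Gs-coupled adenosine receptor, at 0.26. Of 8 histamine genes 4 were measured. Hrh2 stood at -1.02, 2-fold lower, yet its signals of 28 on the GATA1 siRNA array and 50 on the control siRNA array were dim. Slc18a2, the vesicular transporter that loads histamine into granules, stood at -0.39 over 2 probes and Hrh1 at 0.13. Hdc, which makes histamine, stood at -0.07, at a spot with others differing 4-fold close by. Slc22a3, a transporter that takes up histamine, passed the background test with control siRNA only (at least 1.49-fold lower with GATA1 siRNA). The histamine receptor gene Hrh3 passed with GATA1 siRNA only. Its scaled level there was 1.19-fold that with control siRNA, which did not pass, so this value is not a bound.

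Of 15 nucleotide receptor genes 11 were measured, none past 2-fold, with a median of -0.03. P2ry6 was at 0.61 but dim (81 on the GATA1 siRNA array, 47 on the control siRNA array), Gpr171 at 0.55 and the ATP-gated channel P2rx1 at -0.53. Among 31 G protein and effector genes 30 were measured, none past 2-fold, with a median of 0.10. The lowest was Gnai1, an inhibitory alpha subunit, at -0.84 with dim signals, followed by Grk5, a receptor kinase, at -0.70. The highest was the adenylyl cyclase Adcy9 at 0.69, also dim (50 on the GATA1 siRNA array, 28 on the control siRNA array). The bright alpha subunit genes Gnai2 and Gnai3 stood at 0.19 and -0.23, and the arrestin genes Arrb1 and Arrb2 at -0.01 and -0.14. Of 21 other receptors of mast cells 15 were measured, none past 2-fold, with a median of 0.13. The chemokine receptor Ccr2 stood at 0.72, the Mas-related receptor Mrgprb1 at -0.65 and the sphingosine 1-phosphate receptor S1pr1 at 0.59. Mrgprb1 was dim, at 48 on the GATA1 siRNA array and 68 on the control siRNA array.

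**Figure D4:**
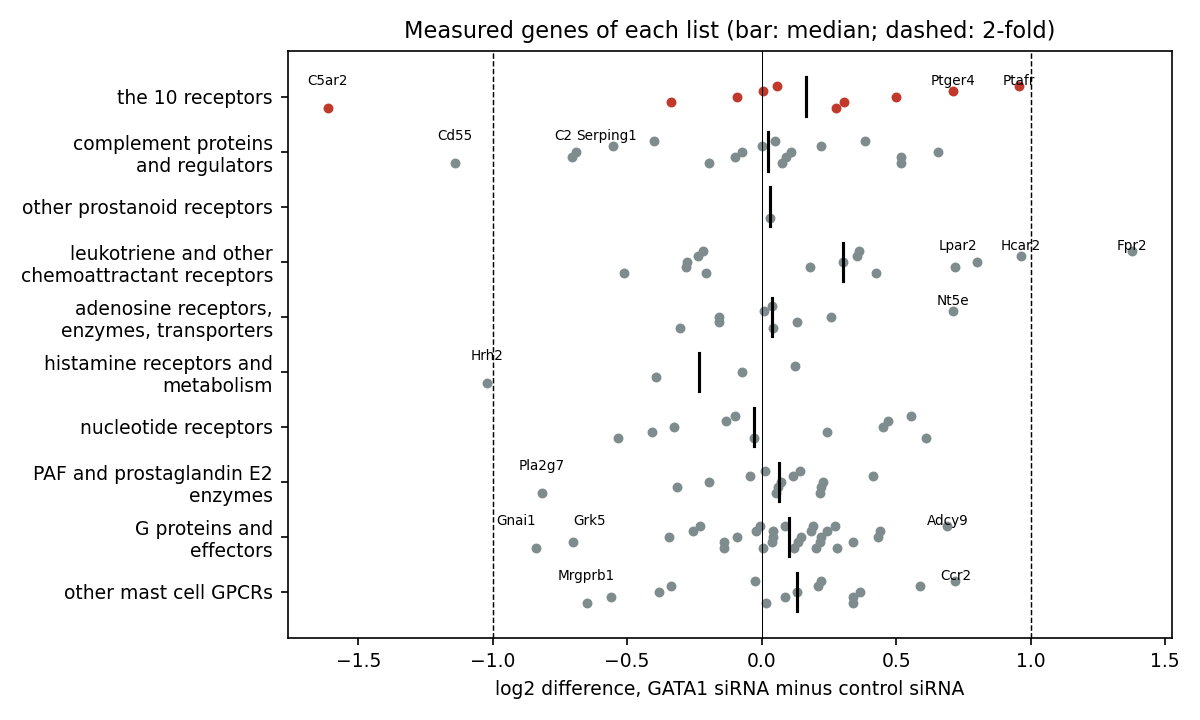
Log2 difference (GATA1 siRNA minus control siRNA) of every measured gene of the 10 receptors (red) and of the 9 related lists (grey), with a black bar at each list's median and dashed lines at 2-fold. C5ar2 (-1.61) is the lowest gene shown, followed by Cd55 (-1.14) and Hrh2 (-1.02), and Fpr2 (1.38) is the highest.

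C5ar1, C3ar1, Ptafr and Ptger4 are also expressed by neutrophils, monocytes and macrophages, and most measured markers of these cells had differences above 0. At least 2-fold higher were 1 of 16 measured neutrophil genes and 2 of 14 measured macrophage or monocyte genes, against 0.294% of all genes. At least 1.5-fold higher were 6 of 16 and 6 of 14, against 1.83% of all genes. At least 1.5-fold lower were 0 and 1, against 2.76%. The lists were chosen with earlier results of these data known. Of 18 neutrophil markers 16 were measured, 14 of them above 0, with a median of 0.50. Their summed scaled level was 449 on the GATA1 siRNA array and 466 on the control siRNA array. The bright genes Ctsg (-0.37) and Csf3r (-0.24, at a spot with others differing 4-fold close by) were lower, whereas S100a9 (0.60), S100a8 (0.61), Ly6g (0.49), Ltf (0.79) and Itgb2l (1.01) were higher. S100a9 was bright too (23828 on the GATA1 siRNA array, 14061 on the control siRNA array). Itgb2l was dim, at 62 on the GATA1 siRNA array and 28 on the control siRNA array. Leaving out Ctsg and Csf3r, a choice made after their values were seen, keeps only the 14 genes above 0. Their sum is higher by that choice (145 on the GATA1 siRNA array, 98.5 on the control siRNA array), and nothing is read from it. Of 18 macrophage and monocyte markers 14 were measured, 11 of them above 0, with a median of 0.52 and a summed scaled level of 40.7 on the GATA1 siRNA array and 25.8 on the control siRNA array. Ms4a7 stood at 1.09 and Cd68 at 1.07, and Cx3cr1 at -0.94 and Fcgr1 at -0.39. Fcgr1 was dim, at 30 on the GATA1 siRNA array and 35 on the control siRNA array. Of the defining macrophage genes, C1qa and Mertk had no signal well above background, and Csf1r stood at 0.02. Dendritic cell markers, all 10 measured, had a median of 0.37, with Ccl17 at -0.61 and H2-Aa at 0.58. H2-Aa was dim, at 120 on the GATA1 siRNA array and 72 on the control siRNA array. The part of these cells in the differences of C5ar1, Ptafr and Ptger4 was not tested.

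Eosinophils carry C3ar1, C5ar1 and Hrh4, and of their 9 markers, all measured, 6 were below 0 with a median of -0.17, led by Epx (-0.85) and Prg3 (-0.71). Basophil markers, all 6 measured and above 0, had a median of 0.32, with Cd69 at 0.58 and Itga2 at 0.45. Megakaryocyte markers (8 of 8 measured) had a median of -0.25, with Gp1ba at -1.02 and Ppbp at -0.74, and erythroid markers (6 of 10 measured) one of 0.26. Epor stood at -1.58 with dim signals, 53 on the GATA1 siRNA array and 142 on the control siRNA array. Hba-a2 was higher, at signals of 1225 on the GATA1 siRNA array and 546 on the control siRNA array. Lymphocyte markers (5 of 10 measured) had a median of -0.10, with Cd79a at -0.38 and Nkg7 at 0.34. Stromal markers (4 of 9 measured) had one of 0.07, with Timp3 at -0.61 and Pdgfrb at 0.39. Signals were also dim for Ppbp, Itga2, Cd79a, Timp3 and Pdgfrb. Among the mast cell markers the largest differences were those of the granule proteases Mcpt4 (-0.88) and Tpsb2 (-0.55). The part of these cell types in the receptor differences was not tested either.

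**Figure D5:**
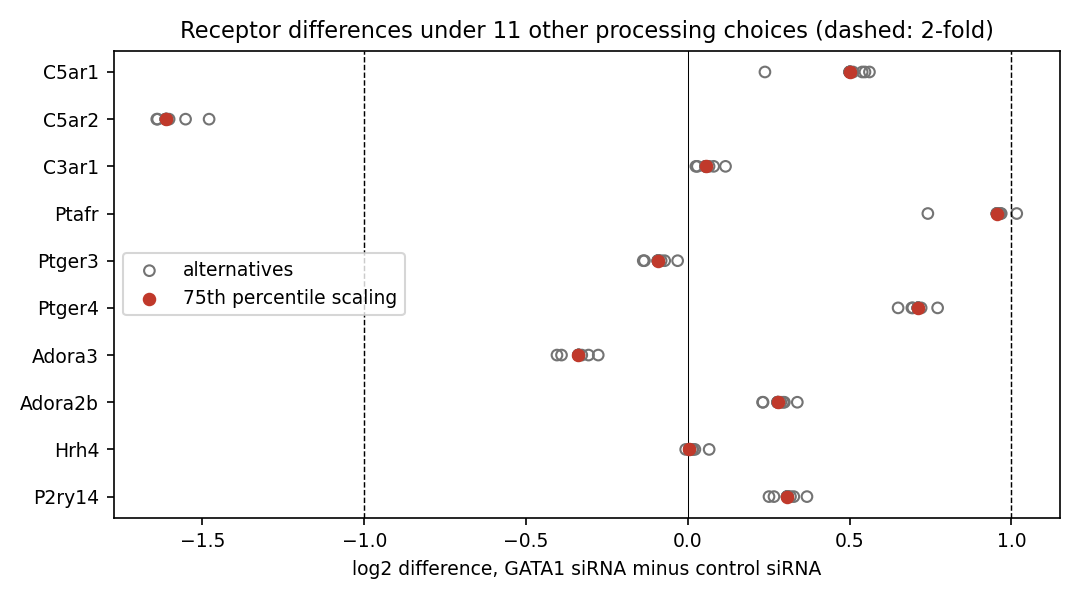
Log2 difference (GATA1 siRNA minus control siRNA) of each receptor gene with the 75th percentile scaling (filled) and under 11 other processing choices (open), with dashed lines at 2-fold. C5ar2 stays between -1.64 and -1.48, Ptafr crosses the 2-fold line under 1 choice (1.02), and C5ar1 has its lowest value at 0.24.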

How the data were processed

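Total RNA (100 ng input) of 2 samples was labelled with Cy3 and read on 2 one-colour arrays of 1 slide, 1 per siRNA, grouped by the transfection label. The deposited scanner files hold intensity values from Agilent Feature Extraction (version 10.7.3.1, per the file headers), with spatial and multiplicative detrending on and the separate background correction off. The authors' deposited table of normalized intensity equals each array's processed signal divided by its own median over non-control spots (found by matching, median 1 on both arrays), and how it was made is not given in the sources used here.

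From these, control spots and outlier spots (133 on the GATA1 siRNA array, 117 on the control siRNA array) were left out, repeated spots averaged on the log2 scale, and each array divided by its 75th percentile. A probe is measured when well above background and unsaturated on both arrays, and a gene is the mean of its measured probes. Probes were named from RefSeq (GRCm38.p6) by accession (27219) or symbol (4150), and 24290 kept the array's name. RefSeq promoter windows are from the same build, and probe coordinates are the array's (mm9).

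With 1 array a group, a rule of size (2-fold, and 1.5-fold beside it) replaced tests. The receptors and all lists were chosen with earlier results of these data known. Named genes are the 10 receptors, Gata1, the 3 largest differences of each related list and the 2 largest of each marker list, the 3 genes nearest to C5ar2 and its neighbours within 100 kb. Cfp, Ltb4r1, Lpar6, Cnr2, Gnai2, Gnai3, Arrb1, Arrb2, Hc, Hdc, Slc22a3, Hrh3 and Mrgprb2 were named after their values were seen. So were the neighbours of Ptafr and P2ry14 and the other marker genes. Alternatives were normexp background correction (offset 50, limma 3.58.1), 4 scalings, 2 filters, outlier spots kept, 2 rules for several probes, spots with at least 2 of 12 close spots differing 4-fold left out, and other size rules. The functions were tested on simulated data.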

Additional observations from a re-analysis of the deposited data

How the results depend on the processing

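Of the recomputed values 589 stayed within their error or, for counts, within 1.5 times, and 26 moved. List medians near 0 changed sign under some alternatives, spanning -0.04 to 0.09 for complement, -0.01 to 0.09 for other prostanoid receptors, -0.08 to 0.10 for adenosine and -0.09 to 0.12 for nucleotide receptors. Gata1 stood between -2.28 and -2.17 and C5ar2 between -1.64 and -1.48, and C5ar2 was the 1 receptor at least 2-fold lower under all alternatives. With the authors' scaling, which moves the median of all genes to 0.07, the median over the 10 receptors was 0.23 and 1 receptor (Ptafr) was at least 2-fold higher. The 1.5-fold rule gave 2 higher. With normexp, C5ar1 stood at 0.24, Ptafr at 0.74 and C5ar1 minus C5ar2 at 1.72, the chemoattractant list had 0 genes 2-fold higher and the histamine list 0 lower. The histamine count was also 0 with quantile and loess scaling, the authors' scaling and the stricter filter. The chemoattractant count was 2 with the first 3 of these and 0 with the stricter filter. With no filter on dim probes the complement list had 2 genes lower and 2 higher, the other prostanoid receptors 2 higher, the histamine list 2 lower and 1 higher, the other mast cell receptors 1 lower and 1 higher, and the median of the leukotriene and chemoattractant receptors, otherwise above 0, was -0.076. The sign of Hrh4 turned with normexp (-0.01), a value near 0. The split of all 2-fold calls was 32.6% higher, against 42.5% with loess or the authors' scaling, and the counts were 17 higher and 31 lower with normexp and 725 and 1124 with no filter, which counts probes under background. It was 22 and 48 with the stricter filter, which tests 15861 genes, and 37 and 94 without spots near others differing 4-fold, beside 60 and 124. The causes were not tested. Many of the 589 values could not move. Filters cannot move receptors whose probes are all bright, and probe rules cannot move receptors with 1 probe. A constant scaling cannot move the difference between 2 receptors. Receptors with 1 probe also enter the tally as a probe and again as a gene. No paired analysis was possible because each group is 1 array. Signal over background limits C5ar1, the dimmest receptor.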

Other observations

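Some other surface receptor genes of the related and marker lists differed too. Ccr2, a chemokine receptor of monocytes, had signals of 2278 on the GATA1 siRNA array and 1233 on the control siRNA array, and Gp1ba, the platelet glycoprotein, had 4223 on the GATA1 siRNA array and 7638 on the control siRNA array. Cx3cr1, the fractalkine receptor, stood at -0.94 on average over 2 probes, opposite to most of the macrophage list. Mrgprb2, a receptor of connective tissue mast cells for basic peptides, stood at -0.38, with signals of 379.9 on the GATA1 siRNA array and 441 on the control siRNA array.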
